A study of Mus musculus with 4 samples.

Results

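The insulin-like growth factor (IGF) axis was examined as 10 genes, the ligand Igf1, the receptors Igf1r, Insr and Igf2r, the adaptors Irs1 and Irs2, and the binding proteins Igfbp3, Igfbp4, Igfbp5 and Igfbp7. These were fixed by name, and all 10 of 10 were found among the 20065 genes of the deposited RNA-seq table. The RNA came from cultured muscle stem cells (MuSC, or satellite cells) of limb and trunk muscle of adult C57BL/6 mice. The labels name the 2 control libraries WT and the 2 Prmt5sKO libraries PRMT5 KO. In the paper's figure legends, controls carry Pax7CreERT2 with 1 floxed and 1 intact Prmt5 allele. Prmt5sKO carries Pax7CreERT2 with both Prmt5 alleles floxed. Per the study, Cre was activated by 4-hydroxytamoxifen added to the cultured cells of both groups. If the control libraries had the genotype of the legends, they could lose the floxed allele too. They would then not be wild type for Prmt5, an arginine methyltransferase, and the labels do not settle this. Cre was driven from the Pax7 locus, which is active in MuSC. Whether each library came from its own animals is not given in the labels, so p-values measure the spread between these libraries, whose source is not known.

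IGF-I and IGF-II are secreted growth factors that promote proliferation, survival and differentiation of myogenic cells. Both act through the receptor tyrosine kinase encoded by Igf1r, and the related insulin receptor encoded by Insr can form hybrids with it. The adaptors IRS1 and IRS2 pass the signal to PI3K and Akt and, with SHC1 and GRB2, to Ras and ERK. IGF2R, also the cation-independent mannose 6-phosphate receptor, takes up IGF-II for breakdown and sends no kinase signal. IGF binding proteins hold the ligands outside the cell, and proteases release them. IGFBP5 is the binding protein best known from differentiating myoblasts.

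Whole counts of each library were recovered from the deposited group means, with totals of 13240754 to 20047430. Replicate numbers are not in the table, and the libraries of a group are therefore named deeper and shallower by total. Normalized counts are counts scaled by trimmed-mean (TMM) factors to a common depth. Wherever a pair of values is given for a group, the deeper library comes first. For Prmt5 itself the controls had 2223 and 2843 normalized counts, and Prmt5sKO had 238 and 198. All 9 myogenic markers fixed for the check, among them Pax7, Myod1 and Des, were read in every library, whereas the summed levels of endothelial, immune, fibroblast and Schwann markers stayed at or below 7.83 CPM (counts scaled by effective library size) per kilobase of exon, against 852 or more for the myogenic markers. Mural and smooth muscle markers were not as low, at 31.6 and 6.44 in control and 45.2 and 96.4 in Prmt5sKO. Of the 4 measured, 3 had both Prmt5sKO libraries above both controls, where 25.2% of all genes tested did. The other 1 overlapped between the groups, and the lowest log2 fold change of the 4, Prmt5sKO minus control, was −0.28. Ptprc and Adgre1 of the immune list, Emcn and Tie1 of the endothelial list and Kcnj8 of the mural list had no row. Ribosomal-type transcripts with Lars2 took 6.54% and 14.9% of the control counts and 1.94% and 2.64% of the Prmt5sKO counts. Xist, which is transcribed from the inactive X chromosome, had 8479 and 22.8 normalized counts in control and 7.97 and 5532 in Prmt5sKO, so each group held 1 library with it and 1 nearly without it. The 2 libraries of a group were thus not repeats of the same RNA sample. Every gap between the 2 libraries of a group coincides with this Xist difference, and its part in the values below was not tested.

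The comparison of Prmt5sKO with control MuSC asked which transcripts of the axis differ once Prmt5 is lost. In the Prmt5sKO libraries, 3 of the 4 binding proteins (Igfbp5, Igfbp4 and Igfbp7), the scavenging receptor Igf2r and the ligand Igf1 lay above both control libraries, whereas the signalling receptor Igf1r and the adaptors Irs1 and Irs2 lay below both. The largest difference relative to its error was that of Igfbp5, which averaged 4.18 times the control level. Insr and Igfbp3 overlapped between the groups. None of these differences passed the test across all genes (limma-voom, with a Benjamini-Hochberg threshold of 0.05 and a 2-fold difference), which called 0 of 16153 genes (0%), and 2100 genes had an unadjusted p under 0.05. A second tool, limma-trend, called 0 genes as well, with 2372 at an unadjusted p under 0.05. Prmt5 itself, which had the smallest adjusted p of any gene (0.193 by limma-voom), was not called either. The paper, whose methods name DESeq2, reports genes that changed at a false discovery rate below 0.05. The 0 called here is therefore no sign that nothing changed. With 2 libraries against 2, an exact two-sided permutation test of 1 gene cannot go below p = 0.333. In bulk RNA, a change in the number of cells of a type and a change in RNA per cell cannot be told apart.

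Read against all genes, 5 of the 10 members had both Prmt5sKO libraries above both controls, where 25.2% of the 16153 genes tested did, and 3 had both below, where 23.6% did. By unadjusted p under 0.05, 3 members (Igfbp5, Igfbp4 and Igfbp7) were higher against 6.03% of genes, and 1 (Irs1) was lower against 6.97%. The median log2 fold change of the 10 members was 0.73, and that of all genes tested was 0.02. The members were chosen with earlier results of these data known, so this comparison with all genes is a description only. When libraries were scaled by total count alone, the members split 6 higher to 2 lower, since Insr then lay above and Irs2 overlapped, and the split over all genes tested moved from 4073 to 3819 to 4836 to 2946.

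**Figure D1:**
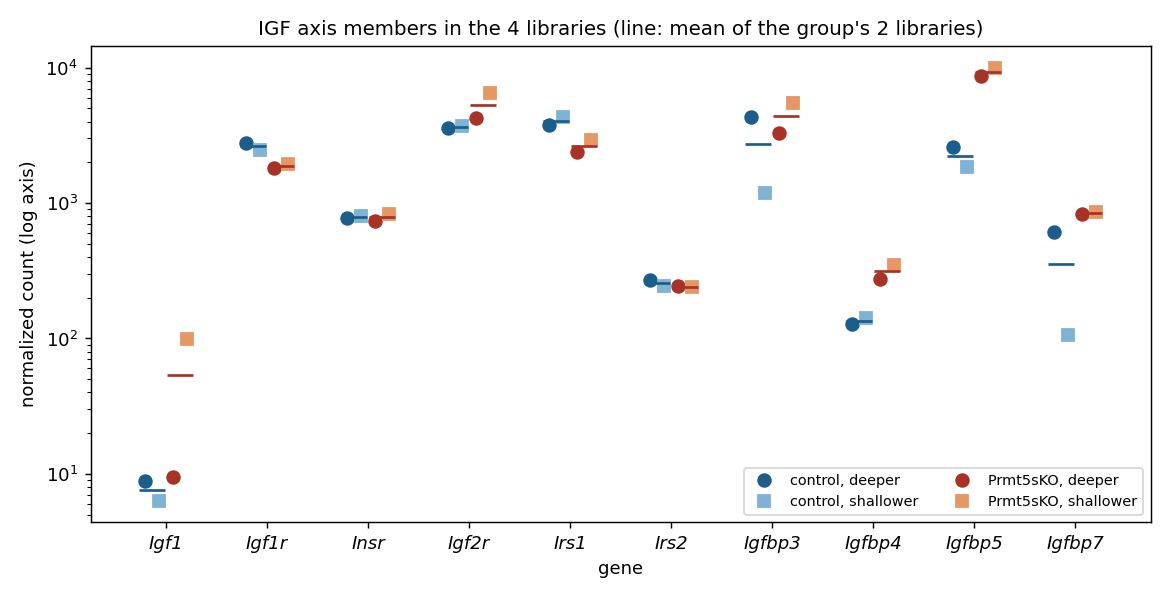
Normalized counts of the 10 IGF axis genes (vertical log axis) in each of the 4 libraries, with a line at the mean of each group's 2 libraries. Both Prmt5sKO libraries lie above both controls for Igfbp5 (8691 and 10022 against 2616 and 1860) and below them for Igf1r and Irs1, and for Igf1 a single Prmt5sKO library, at 98.4, stands apart from the other 3.

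To show what stands before the members that lay apart most relative to their error in each direction, the 250 bases before the RefSeq transcription start (GRCm38.p6) are printed for 2 genes that were higher (Igfbp5 and Igfbp4) and 2 that were lower (Irs1 and Igf1r). Each runs 5′ to 3′ along the gene's own strand and ends at position −1. Capitals mark matches, on either strand, to the TATA box TATAAA, the GC box GGGCGG or the E-box CANNTG, the kind of site that MyoD-family factors bind.
Igfbp5 (chr1:72874866-72875115, minus strand): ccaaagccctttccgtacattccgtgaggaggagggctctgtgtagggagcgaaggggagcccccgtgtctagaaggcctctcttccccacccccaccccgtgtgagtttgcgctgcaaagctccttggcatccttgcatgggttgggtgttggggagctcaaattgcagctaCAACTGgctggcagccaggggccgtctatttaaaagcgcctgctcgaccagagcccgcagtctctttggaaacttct
Igfbp4 (chr11:99040994-99041243, plus strand): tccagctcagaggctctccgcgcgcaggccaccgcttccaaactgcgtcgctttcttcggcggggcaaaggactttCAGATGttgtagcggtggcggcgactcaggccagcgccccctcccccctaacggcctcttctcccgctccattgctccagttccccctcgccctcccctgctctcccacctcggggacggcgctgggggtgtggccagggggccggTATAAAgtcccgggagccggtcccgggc
Irs1 (chr1:82291440-82291689, minus strand): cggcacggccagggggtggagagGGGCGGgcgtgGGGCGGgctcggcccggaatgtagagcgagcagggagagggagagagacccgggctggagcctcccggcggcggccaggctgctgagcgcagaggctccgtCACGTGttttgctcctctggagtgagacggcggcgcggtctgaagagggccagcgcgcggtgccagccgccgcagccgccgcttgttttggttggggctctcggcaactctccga
Igf1r (chr7:67952007-67952256, plus strand): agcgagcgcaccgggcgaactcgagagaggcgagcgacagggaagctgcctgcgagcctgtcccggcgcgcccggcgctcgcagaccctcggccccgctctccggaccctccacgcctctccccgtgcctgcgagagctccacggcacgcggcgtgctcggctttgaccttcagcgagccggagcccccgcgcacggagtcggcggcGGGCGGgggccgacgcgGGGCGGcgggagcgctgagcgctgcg

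The Igfbp4 window holds a TATAAA match whose first base is 28 bases before the start and 1 E-box, and Igfbp5 holds 1 E-box and neither of the other motifs. Irs1 holds 2 GC boxes and an E-box of the palindromic form CACGTG, and Igf1r holds 2 GC boxes alone. Windows of 9 of the 10 members were matched by symbol, all but Insr. Among these 9, 1 held TATAAA, 5 held GGGCGG and 7 held CANNTG, against 12.4%, 32.7% and 66.2% of all 32851 RefSeq promoter windows of the same length. No match overlapped a match to another of these motifs. The GC content of the members' windows ranged from 52.8% (Igf1) to 77.6% (Igf1r), where the median over all windows was 52.4%. Igfbp5, at 58.8%, was the second lowest of the 9. These letters are a description of the windows and do not show that a factor binds there.

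Igf1 (ENSMUSG00000020053, chr10:87858265-87937042, plus strand of GRCm38), which encodes IGF-I, was the least abundant member. Controls gave 8.84 and 6.34 normalized counts, and Prmt5sKO gave 9.42 and 98.4. The deeper Prmt5sKO library was thus level with the controls, and the shallower one alone was about an order of magnitude higher. These values rest on 8, 5, 13 and 100 counts, with exact 95% Poisson intervals of 3.82 to 17.4, 2.06 to 14.8, 5.02 to 16.1 and 80.0 to 119.7 normalized counts that cover counting error only. Its log2 fold change of 1.76 (SE 1.60, adjusted p = 0.648 by limma-voom) was 0.26 without the shallower Prmt5sKO library and 3.60 without the deeper one. Since the groups were separated by 1 library, no level of Igf1 in Prmt5sKO MuSC as a group can be given from these data.

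The library with most Igf1 was also the library with most muscle differentiation transcripts. Over the 19 differentiation markers (Myog, myosin heavy chains, actins and the like), the summed level was 517 and 347 CPM per kilobase in the controls. It was 794 in the deeper Prmt5sKO library and 9089 in the shallower one. None of the 19 was at 0 in any library. Of them, 15 had both Prmt5sKO libraries above both controls, where 25.2% of all genes tested did. Igf2, the other ligand gene and an imprinted gene, followed the same order among the Prmt5sKO libraries, with 10806 and 4944 normalized counts in control and 9137 and 48857 in Prmt5sKO. Per kilobase, Igf2 stood at 2115 and 1349 times the level of Igf1 in the controls and at 1678 and 859 times in Prmt5sKO, so IGF-II messenger RNA was the more abundant in all 4 libraries. The part of differentiation in these values, and in those of the members below, was not tested.

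**Figure D2:**
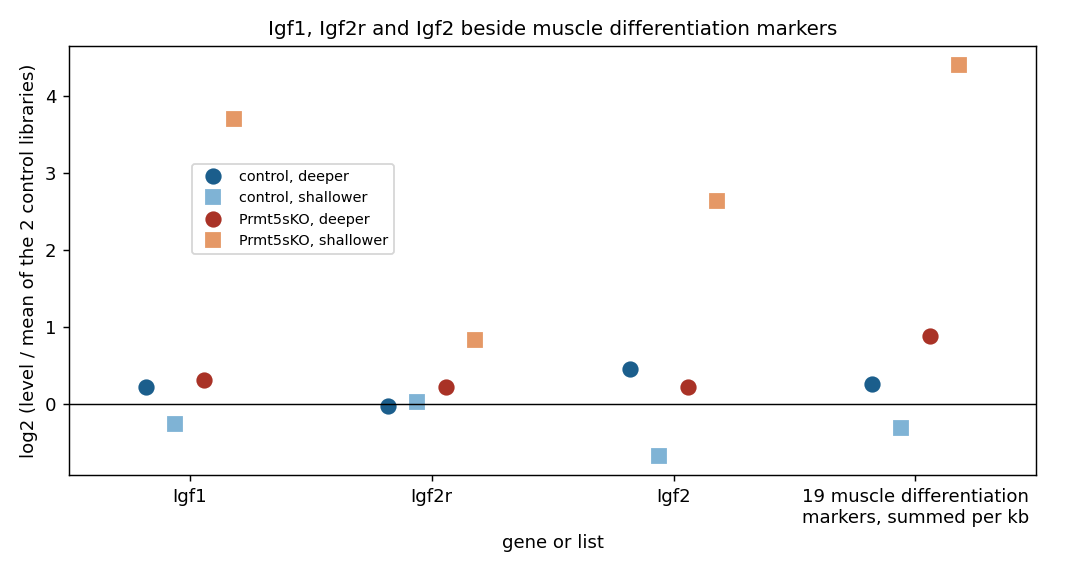
Levels of Igf1, Igf2r and Igf2 and the summed level per kilobase of the 19 muscle differentiation markers, each as log2 of its ratio to the mean of the 2 control libraries (vertical axis), 1 point per library. The shallower Prmt5sKO library is the highest for all 4 quantities, and the deeper one is above both controls for Igf1, Igf2r and the markers; the 3 genes were chosen for this plot after their values were seen.

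Igf1r (ENSMUSG00000005533, chr7:67952827-68233668, plus strand), the receptor that carries the signal of both ligands, was lower in both Prmt5sKO libraries. It was at 2802 and 2485 normalized counts in control and at 1832 and 1944 in Prmt5sKO, or 2644 ± 224 against 1888 ± 79.5 (SD, n = 2 each). The groups did not overlap, and the gap between them was wider than the gap between libraries of either group. Between the groups the log2 fold change came to −0.48 (95% confidence interval −0.97 to 0.00, adjusted p = 0.385 by limma-voom), and it stayed between −0.56 and −0.41 with each library left out.

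Insr (ENSMUSG00000005534, chr8:3122061-3279617, minus strand), which encodes the insulin receptor, was at 782 and 809 normalized counts in control and at 743 and 826 in Prmt5sKO. The Prmt5sKO libraries enclosed both controls. Its log2 fold change was −0.02, with a 95% confidence interval from −0.54 to 0.49, so a difference as large as that of Igf1r lies inside the interval. Within a library, where scaling plays no part, Igf1r stood at 2.94 and 2.51 times Insr per kilobase of exon in the controls and at 2.02 and 1.93 times in Prmt5sKO. This ratio was lower in both Prmt5sKO libraries.

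Igf2r (ENSMUSG00000023830, chr17:12682406-12769664, minus strand), the uptake receptor for IGF-II, ran the other way from Igf1r. It was at 3565 and 3694 normalized counts in control and at 4217 and 6453 in Prmt5sKO. Both Prmt5sKO libraries were above both controls, and the shallower one was the highest by a wide margin. This gave a log2 fold change of 0.53 (SE 0.26, adjusted p = 0.434 by limma-voom), and one of 0.22 without the shallower Prmt5sKO library, the library rich in differentiation transcripts. Per kilobase, Igf1r was 0.436 and 0.373 of Igf2r in the controls and 0.241 and 0.167 of it in Prmt5sKO. Airn, an antisense RNA of this imprinted locus that shares no exon bases with Igf2r, was at 165 and 327 normalized counts in control and at 127 and 193 in Prmt5sKO.

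Irs1 (ENSMUSG00000055980, chr1:82233101-82291416, minus strand), the more abundant of the adaptor genes here, was at 3783 and 4334 normalized counts in control and at 2377 and 2927 in Prmt5sKO. Both Prmt5sKO libraries were below both controls, at a mean of 2652 ± 389 against 4058 ± 389 (SD, n = 2 each). On the log2 scale the difference was −0.62 (95% confidence interval −1.15 to −0.09, unadjusted p = 0.029, adjusted p = 0.335 by limma-voom). It ranged from −0.77 to −0.47 with each library left out. Of its 9144 exon bases, 2822 are shared with Gm9747 on the opposite strand, which has no row in the table, and the strand setting of the counting is not given in the sources used here.

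Irs2 (ENSMUSG00000038894, chr8:10984681-11008458, minus strand), the second adaptor, was at 272 and 245 normalized counts in control and at 244 and 240.0 in Prmt5sKO. Its groups were separated by about 1 normalized count, and the order was lost when libraries were scaled by total count. Its log2 fold change was −0.10 (95% confidence interval −0.77 to 0.57). Per kilobase, Irs1 stood at 9.62 and 12.2 times Irs2 in the controls and at 6.75 and 8.43 times in Prmt5sKO, so this within-library ratio was also lower in both Prmt5sKO libraries.

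**Figure D3:**
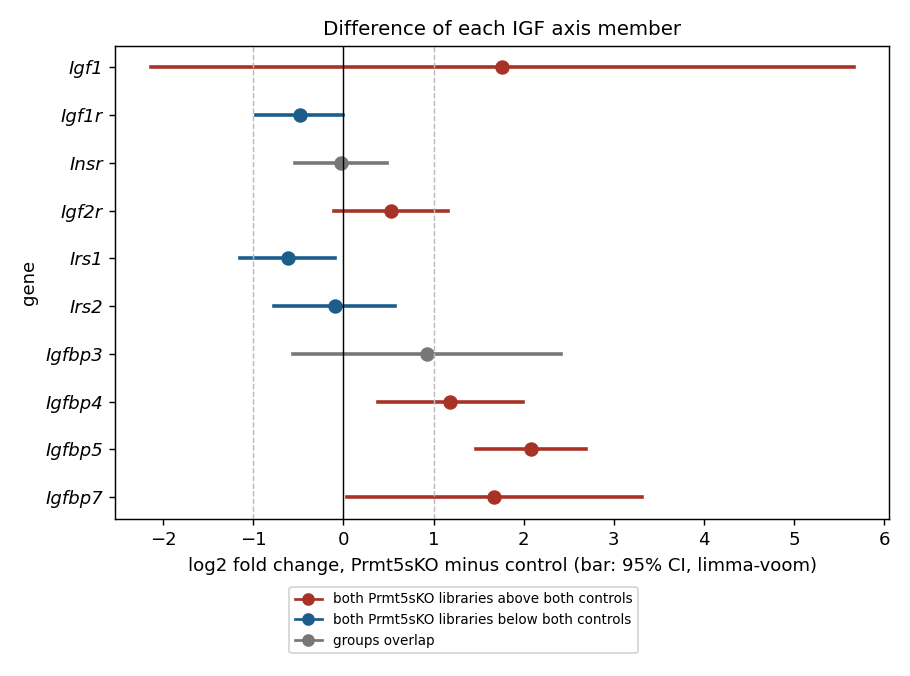
Log2 fold change of each member, Prmt5sKO minus control (horizontal axis), with its 95% confidence interval from limma-voom and dashed lines at 2-fold. The intervals of Igfbp5, Igfbp4 and Igfbp7 lie above 0 and that of Irs1 below it before correction over 16153 genes, the interval of Igf1 is the widest, and Igfbp5 is the one member whose whole interval (1.47 to 2.69) lies beyond 2-fold.

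Igfbp5 (ENSMUSG00000026185, chr1:72857932-72874884, minus strand) showed the clearest separation of the axis. Controls had 2616 and 1860 normalized counts and Prmt5sKO had 8691 and 10022, or 2238 ± 534 against 9356 ± 941 (SD, n = 2 each). The lowest Prmt5sKO library was thus over 3 times the highest control. The summed differentiation markers given above were also higher in both Prmt5sKO libraries than in the controls, and their part in the Igfbp5 difference was not tested. The difference of 2.08 on the log2 scale (SE 0.25, 95% confidence interval 1.47 to 2.69) had the 11th smallest unadjusted p of all 16153 genes and the second smallest among those that were higher. The adjusted p was 0.198 by limma-voom, where the smallest of any gene was 0.193. It passed the threshold without the deeper (adjusted p = 0.0077) or the shallower Prmt5sKO library (0.048), and it was 0.355 without the deeper and 0.968 without the shallower control, while the fold change stayed between 1.85 and 2.32 in these fits.

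Igfbp4 (ENSMUSG00000017493, chr11:99041244-99054392, plus strand), whose product binds both ligands and is cleaved by the protease encoded by Pappa, was the next by the size of its p-value among the members. It was at 128 and 142 normalized counts in control and at 277 and 348 in Prmt5sKO, or 135 ± 9.80 against 313 ± 50.5 (SD, n = 2 each). Here too the groups lay far apart relative to the gap within each. The fitted log2 fold change of 1.19 (SE 0.33, unadjusted p = 0.0112, adjusted p = 0.280 by limma-voom) ranged from 1.04 to 1.37 with each library left out. Igfbp4 was far less abundant than Igfbp5, at 1.84 and 2.04 CPM per kilobase in control, where Igfbp5 had 27.6 and 19.6, and at 3.97 in the deeper Prmt5sKO library, where Igfbp5 had 91.7.

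Igfbp7 (ENSMUSG00000036256, chr5:77349240-77408041, minus strand) encodes a related protein with low affinity for the IGFs. It was at 610.2 and 105 normalized counts in control and at 831 and 864 in Prmt5sKO. The shallower control was low and the deeper control was not far below the Prmt5sKO libraries. Its log2 fold change of 1.67 (SE 0.67, unadjusted p = 0.046, adjusted p = 0.377 by limma-voom) was 0.48 without the shallower control and 2.99 without the deeper one. Its exons share 85 of 1209 bases with Polr2b on the opposite strand, which was at 2117 to 2658 normalized counts in the 4 libraries.

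Igfbp3 (ENSMUSG00000020427, chr11:7206086-7213923, minus strand), the main carrier of IGFs in serum, had the highest level per kilobase of the members in control MuSC. It had 4306 and 1179 normalized counts in control and 3312 and 5522 in Prmt5sKO. Again the shallower control was the low library, and the deeper control lay between the Prmt5sKO libraries. A log2 fold change of 0.93 (95% confidence interval −0.56 to 2.42, adjusted p = 0.534 by limma-voom) became 0.01 without the shallower control. The same library was also the lowest for the mural markers, whose sums are given above and of which none of the 4 measured was at 0. The part of such cells in the Igfbp3 and Igfbp7 values was not tested.

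Among the 6 binding protein genes expressed in these cells, the 4 members with Igfbp2 and Igfbp6, the make-up differed between the groups. Their summed level was 217 and 80.3 CPM per kilobase in the controls and 263 and 354 in Prmt5sKO. Igfbp5 made up 12.7% and 24.4% of that sum in the controls and 34.8% and 29.9% in Prmt5sKO. Igfbp2 made up 30.4% and 35.9% in control and 20.2% and 22.2% in Prmt5sKO. Neither of these shares overlapped between the groups, nor did that of Igfbp6 (1.28% and 0.540% against 1.41% and 2.11%), whereas those of Igfbp3 (40.1% and 29.7% against 25.5% and 31.6%), Igfbp4 (0.846% and 2.54% against 1.51% and 1.41%) and Igfbp7 (14.7% and 6.87% against 16.5% and 12.8%) did. Taken per kilobase of the longest transcript, the Igfbp5 share was at most 19.7% in control and at least 25.2% in Prmt5sKO. Igfbp2 lies 5.5 kb from the end of Igfbp5 on chromosome 1, in the opposite orientation, and was at 1925 and 840 normalized counts in control and at 1550 and 2295 in Prmt5sKO, so the groups of this neighbour overlapped. Igfbp1, which lies 3.5 kb from Igfbp3, had no row in the table.

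**Figure D4:**
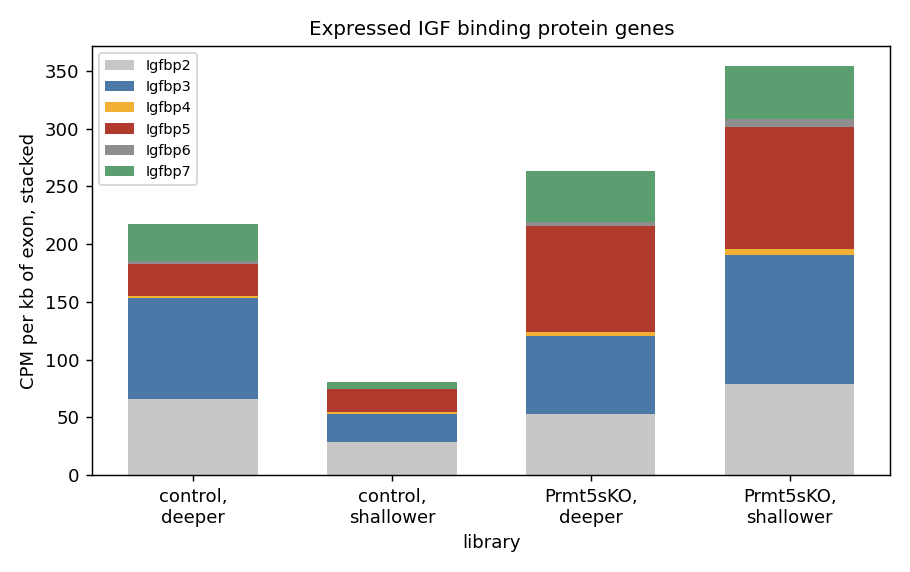
Stacked levels of the 6 expressed IGF binding protein genes (vertical axis, CPM per kilobase of exon) in each library. The Igfbp5 segment is 27.6 and 19.6 in the controls and 91.7 and 106 in Prmt5sKO, and the shallower control has the smallest sum, at 80.3.

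Ordered by mean CPM per kilobase of exon in control MuSC, the members ran Igfbp3 (55.5 ± 44.8), Irs1 (28.1 ± 2.70), Igf2r (24.7 ± 0.622), Igfbp5 (23.6 ± 5.64), Igfbp7 (18.7 ± 18.7), Igf1r (9.98 ± 0.846), Insr (3.67 ± 0.0907), Irs2 (2.59 ± 0.192), Igfbp4 (1.94 ± 0.141) and Igf1 (0.0486 ± 0.0113), each with its SD over 2 libraries. Neighbours whose libraries overlapped were Igfbp3 with Irs1, Igf2r with Igfbp5, Igfbp5 with Igfbp7, and Igfbp7 with Igf1r. In control, the order was the same per kilobase of the longest transcript. In Prmt5sKO, by merged exon length, Igfbp5 came first at 98.7 ± 9.93, overlapping Igfbp3 at 89.4 ± 31.6. Igfbp7 (44.4 ± 1.23) and Igf2r (36.3 ± 10.8), which overlapped each other, then came before Irs1 (18.4 ± 2.70), which had been second in control. By the same measure Igfbp4 stood above Insr in Prmt5sKO and below it in control. Per kilobase of the longest transcript, Igfbp3 came before Igfbp5 and Insr before Igfbp4 in Prmt5sKO, so the first place of Igfbp5 and the swap of Igfbp4 with Insr did not hold on both measures. Among all genes tested, the control level per kilobase of Igfbp3 was at percentile 94.8 and that of Igf1 at percentile 1.82.

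Beyond the members, 91 genes of the pathway were set out in 8 lists, of which 84 were tested. None was called. At an unadjusted p under 0.05, 9 were higher and 5 lower, where 6.03% and 6.97% of all genes tested were. Without overlap, 19 lay above and 19 below, where 25.2% and 23.6% of all genes tested did. Scaling by total count alone turned this split into 25 above and 11 below. The median log2 fold change over the 84 genes was 0.05.

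Of the 4 tested among other ligands and soluble partners, Igfbp6, which prefers IGF-II, was higher in both Prmt5sKO libraries (48.6 and 7.61 against 65.2 and 131 normalized counts). Its value in the shallower control rests on 6 counts. Igfals, named after its values were seen, was lower in both Prmt5sKO libraries (22.1 and 36.8 against 12.3 and 20.7). Igf2 and Igfbp2 overlapped as given above. Ins1, Ins2, Igfbp1 and Igfbpl1 had no row. The 5 tested binding protein proteases and their inhibitors all overlapped between the groups, among them the protease Adam12 (651 and 721 against 694 and 378 normalized counts) and the PAPP-A inhibitors Stc1 and Stc2. So did the 3 other receptors, the cation-dependent mannose 6-phosphate receptor M6pr, the endocytic receptor Lrp1 and the IGFBP3 receptor Tmem219.

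Among 17 tested adaptors and feedback genes, 2 were higher and 2 lower at an unadjusted p under 0.05, where 6.03% and 6.97% of all genes tested were. Socs2, which damps growth hormone signalling, was at 629 and 685 normalized counts in control and at 1123 and 903 in Prmt5sKO (log2 fold change 0.62, adjusted p = 0.351 by limma-voom). Shc1, which links receptors to Ras, was at 2296 and 1808 against 4815 and 2720 (0.82, adjusted p = 0.363). The phosphatase gene Ptpn11, an IRS1 partner, was at 4090.2 and 4949 against 2474 and 3043 (−0.71, adjusted p = 0.312). The remaining lower gene was Socs1, named after its values were seen, at 46.4 and 53.3 against 2.90 and 28.5 normalized counts.

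In the PI3K and Akt arm, 2 of 19 genes were higher at an unadjusted p under 0.05 and none was lower, where 6.03% and 6.97% of all genes tested were. Without overlap, 6 of the 19 lay above and 4 below, where 25.2% and 23.6% of all genes tested did. Pik3r3, which encodes a regulatory subunit of PI3K that binds IRS proteins, was at 447 and 232 normalized counts in control and at 736 and 1114 in Prmt5sKO (log2 fold change 1.46, SE 0.39, adjusted p = 0.276 by limma-voom). Foxo3, a transcription factor that Akt holds out of the nucleus, was at 1287 and 827 against 1719 and 1593 (0.68, adjusted p = 0.370). Phlpp1, an Akt phosphatase gene, was lower without overlap (1236 and 1020.0 against 539 and 900.2).

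The TSC and mTOR arm had 4 of 20 genes higher and 2 lower at an unadjusted p under 0.05, where 6.03% and 6.97% of all genes tested were. Sesn2, which encodes a stress-induced inhibitor of mTORC1, was at 515 and 521 normalized counts in control and at 786 and 1185 in Prmt5sKO (log2 fold change 0.89, adjusted p = 0.317 by limma-voom), its relative Sesn3 at 465 and 420 (control) and 652 and 869 (0.76, adjusted p = 0.330), and Tsc2, a subunit gene of the TSC complex that restrains mTORC1, at 1836 and 1446 (control) and 2427 and 2578 (0.62, adjusted p = 0.335). The fourth was Ddit4, and the lower ones were Eif4ebp2 and Eif4ebp1, which encode repressors of translation that mTORC1 inactivates, all 3 named after their values were seen. Of the other mTORC1 inhibitors in the list, Sesn1 was higher without overlap, with a log2 fold change of 0.82. It was at 135 and 200 normalized counts in control and at 256 and 330 in Prmt5sKO. Tsc1, Tbc1d7, Deptor and Akt1s1 overlapped between the groups, with log2 fold changes of 0.18, 0.24, 0.14 and 0.08. Sesn1 and these 4 were also named after their values were seen. The median over the 20 was 0.07.

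In the Ras and ERK arm, 1 of 12 genes was higher at an unadjusted p under 0.05, where 6.03% of all genes tested were. Without overlap, 1 lay above and 4 below, where 25.2% and 23.6% of all genes tested did. The median log2 fold change over the 12 was −0.13. The kinase gene Araf was at 837 and 869 normalized counts in control and at 1270 and 1426 in Prmt5sKO (log2 fold change 0.66, adjusted p = 0.310 by limma-voom). Map2k2 lay just below both controls (2477 and 2049 against 1319 and 2042). In the list of 4 genes around Igf2 mRNA binding, Hmga2, included as an activator of Igf2bp2, was lower without overlap (6429 and 6105 against 5445 and 3224). The other 3, Igf2bp1, Igf2bp2 and Igf2bp3, overlapped.

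**Figure D5:**
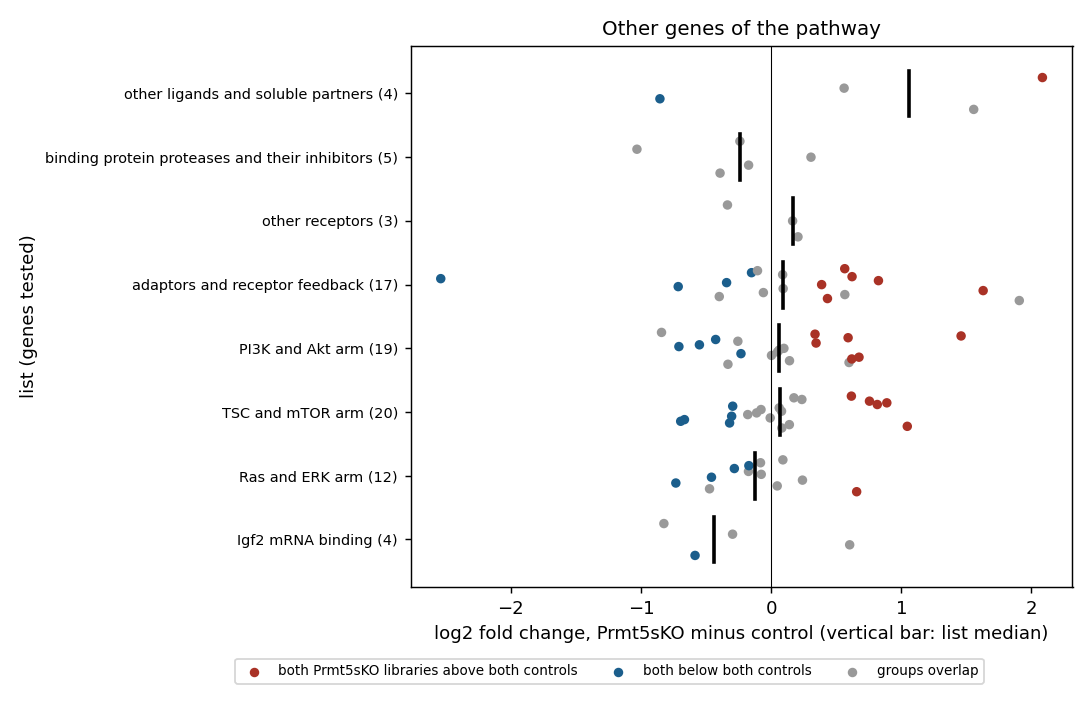
Log2 fold change, Prmt5sKO minus control (horizontal axis), of each of the 84 tested pathway genes in 8 lists, with a bar at the median of each list and colour by whether the 2 groups overlap. Genes above and below 0 are found in most lists, with 19 above and 19 below without overlap, and none passed the threshold.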

How the data were processed

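The data are RNA-seq of cultured MuSC in 4 libraries, 2 per group. According to the paper's methods, RNA was depleted of ribosomal RNA and sequenced on an Ion Torrent Proton. The authors trimmed reads with Reaper, aligned them with STAR (2.4.0a in the submitters' processing notes) to GRCm38/mm10 and compared groups with DESeq2, listed there as 1.62. The authors deposited, as signal values, 1 mean per group of its libraries' counts divided by DESeq2 size factors. Their overall mean, fold change and p-value columns were not used.

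Each group mean is the sum of 2 whole counts divided by 2 size factors, and whole counts were recovered for 20065 of 20065 genes in both groups to floating-point precision. Recovery and fit were also run on simulated data. Counts were scaled by TMM factors (own code, trims of 30% and 5%), filtered at a mean normalized count of 5 over the 4 libraries, and compared with limma-voom (limma 3.58.1, R 4.3.3) over 16153 genes with Benjamini-Hochberg adjustment. Count models, such as the authors' DESeq2, were not run on the recovered counts, so the calls given here are those of limma only. Levels per kilobase are CPM divided by the merged exon length in GENCODE M21, which gave symbols to 19782 of 20065 identifiers. Promoter windows came from RefSeq. The members and lists were chosen with earlier results of these data known. All members were named, with up to 3 genes of each pathway list by smallest unadjusted p, of which 1 is not reported here. Other scalings, no filter, limma-trend, a replicate block and leaving out each library were tried as alternatives.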

Additional observations from a re-analysis of the deposited data

How the results depend on the processing

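Depth limits the values of Igf1, with its 5 to 100 counts per library; every other member had 83 counts or more in each. The count of 0 called genes was also found with the authors' size factors, total counts, upper-quartile factors, no filter, limma-trend, and TMM factors made without ribosomal-type and muscle differentiation genes. With each library left out in turn, 0 to 480 genes were called, with 480 without the deeper and 54 without the shallower Prmt5sKO library; such fits assume that the lone library varies like the 2 of the other group. In the fit with a replicate block that paired the deeper libraries with each other, 0 genes were called, and it changed no call among the members. Deviations of the 2 deeper libraries from their group means had a correlation of −0.24 across 10371 genes. The crossed pairing, chosen after seeing the data, called 334 genes, with Igfbp5 as 1 of them and no other member. It joins the 2 libraries with high Xist to each other, and likewise the 2 nearly without it. Pairing deeper with deeper instead joins 1 library with high Xist to 1 nearly without it in each block. The part of this Xist difference in the calls was not tested. Total counts alone moved the median log2 fold change of all genes from 0.02 to 0.13, a shift of 0.11, and under them 11 rather than 19 pathway genes lay below without overlap. Of 110 member values under 11 alternatives, 104 kept their direction and their side of the threshold, 2 passed it (Igfbp5, without either Prmt5sKO library), and 4 changed sign. These were Insr with total counts (0.084) and without the shallower control or the deeper Prmt5sKO library (−0.098 to 0.056 over the 4 libraries left out), and Irs2 with total counts (0.013), which is under the shift of the median. The cause was not tested.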

Other observations

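Beside Igfbp3 and Igfbp7, some other genes were lower in the shallower control library than in the other 3 libraries. These were Igfbp6 (7.61 normalized counts, against 48.6 to 131 in the others), Igfbp2 (840, against 1550 to 2295), Igf2 (4944, against 9137 to 48857), the endocytic receptor Lrp1 (10797, against 16860 to 24816), Cd34 (24.1, against 216 to 528) and Rgs5 (126, against 1736 to 4072). Myod1 and Pax7 in the same library, at 12662 and 2937 normalized counts, lay inside the range of the others, and Igfbp4 and Igf2r, at 142 and 3694, were slightly above the deeper control. These genes were chosen after their values were seen. The same library had the highest share of ribosomal-type and Lars2 counts, 14.9%.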
